A study of Mus musculus with 12 samples.

Results

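The genes described here are 10 effector and cytotoxic genes of lymphocytes, measured in RNA of whole spleen: Tbx21, Eomes, Ifng, Ccl5, Fasl, Gzmb, Gzma, Gzmk, Prf1 and Nkg7. They were chosen by symbol, with earlier results of these data known. All 10 have a row among the 53715 gene identifiers of the count table and passed the low count filter. RNA was sequenced from 12 libraries in 3 groups of 4: mice untreated at 6 weeks of age, which the submitters call pre-symptomatic, mice untreated at 10 weeks, called symptomatic, and mice of 10 weeks given 2-deoxyglucose (2DG, 6 g/L) as their drinking water. 2DG is a glucose analogue that blocks glycolysis. All groups, the untreated ones included, carry the same alleles, BXSB.Cg-Cd8atm1Mak Il15tm1Imx Yaa, a line called Yaa DKO for short. BXSB mice with Yaa, a Y chromosome bearing extra copies of Tlr7 and other X-linked genes, develop lupus-like disease, and the other alleles are targeted alleles of Cd8a and Il15. No group without these alleles was compared, so what the genotype itself does to the genes is not measured here. The labels do not say that each library came from its own mouse, so p-values judge differences against a spread between libraries that may be technical.

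Effector lymphocytes act through secreted cytokines, through granules and through death ligands. The related T-box transcription factors T-bet (Tbx21) and Eomesodermin (Eomes) drive the type 1 programme, whose main cytokine is interferon gamma (Ifng). In granule killing, perforin (Prf1) opens a path for the granzymes, serine proteases such as granzymes A, B and K (Gzma, Gzmb, Gzmk), and Nkg7 is a granule membrane protein needed for efficient release. Fas ligand (Fasl) triggers death through the receptor Fas, and Ccl5 is a chemokine that draws T cells and monocytes. CD8 T cells and natural killer (NK) cells are the usual source of these products in a healthy spleen, and CD4 T cells can also make them. CD8 T cells need the CD8 coreceptor, and NK cells and memory CD8 T cells need interleukin 15, so the targeted alleles bear on both usual sources.

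Promoter sequences are shown for the genes that fell with 2DG and that RefSeq's promoter table (GRCm38.p6) holds; it has an entry for 9 of the 10 genes, all but Ccl5. Each is the 250 bases before the start of the gene, 5′ to 3′ on the gene's own strand. Capitals mark matches on either strand to any of 4 motifs searched by letters: a T-box motif (GGTGTGA), a Runx motif (TGTGGTT), a STAT motif (TTCNNNGAA) and an NFAT motif (GGAAAA). No matches overlap in the windows shown. The windows of Gzmb, Ifng and Eomes lie outside the span that GENCODE gives for the gene itself, and that of Gzmk lies inside its longer GENCODE span.
Gzmk (chr13:113180966-113181215, minus strand): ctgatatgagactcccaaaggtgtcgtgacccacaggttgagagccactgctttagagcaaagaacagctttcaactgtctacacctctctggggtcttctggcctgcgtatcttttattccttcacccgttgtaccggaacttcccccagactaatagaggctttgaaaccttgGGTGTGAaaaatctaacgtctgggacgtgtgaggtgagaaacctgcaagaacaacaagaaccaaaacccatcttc
Gzmb (chr14:56262335-56262584, minus strand): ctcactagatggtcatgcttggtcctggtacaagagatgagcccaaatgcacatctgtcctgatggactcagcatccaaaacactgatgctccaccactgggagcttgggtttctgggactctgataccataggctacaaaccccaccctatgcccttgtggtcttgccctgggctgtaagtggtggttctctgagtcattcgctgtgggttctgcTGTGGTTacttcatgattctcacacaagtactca
Ifng (chr10:118440796-118441045, plus strand): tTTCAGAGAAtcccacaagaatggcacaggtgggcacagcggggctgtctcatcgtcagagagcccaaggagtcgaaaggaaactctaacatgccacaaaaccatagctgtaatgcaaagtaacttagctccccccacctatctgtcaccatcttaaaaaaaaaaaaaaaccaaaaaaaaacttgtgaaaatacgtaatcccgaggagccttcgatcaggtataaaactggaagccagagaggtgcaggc
Eomes (chr9:118477939-118478188, plus strand): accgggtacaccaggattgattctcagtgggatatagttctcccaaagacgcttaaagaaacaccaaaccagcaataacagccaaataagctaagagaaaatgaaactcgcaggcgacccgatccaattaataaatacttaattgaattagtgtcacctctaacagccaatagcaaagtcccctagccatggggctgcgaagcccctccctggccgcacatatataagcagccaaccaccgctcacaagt
The T-box letters stand 75 to 69 bases before the start of Gzmk, and of the 9 promoters only those of Gzmk and Nkg7 hold them, against 3.33% of 32851 RefSeq promoter windows of the same length. The Runx letters stand 34 to 28 bases before the start of Gzmb and also occur in Gzma (4.4% of all windows). The STAT letters occur in Ifng and Nkg7 (7.02% of all windows) and the NFAT letters in Gzma and Fasl (20.4%). Eomes has none of the 4 in this window. These matches describe letters, and nothing in the data measures binding.

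Libraries held 15596040 to 26079979 counts. Levels are CPM, counts scaled to library size by TMM, given as mean ± SD of 4 libraries, and adjusted p-values come from edgeR's quasi-likelihood test over 18542 genes, with a threshold of 0.05. Untreated 10-week replicate 8 correlated better across genes with the 6-week libraries (median 0.9905) than with those of its own group (median 0.98). It was not the only unusual library of its group. Replicate 6 had the lowest correlation of all 12 libraries with its own group (median 0.9739) and with the 6-week libraries (median 0.973). The untreated 10-week group was also the most variable (its common biological coefficient of variation was 0.241, that of the 6-week group 0.127 and that of the 2DG group 0.114). Calls given below that change without replicate 8 are therefore given with and without it. Genes named only for such a change were chosen after their values were seen. Replicate 8 was itself picked out from these data and was the lowest of its group for 8 of the 10 genes. Leaving it out raises the untreated 10-week mean of those genes, so the fits without it are not independent tests. The tissue label was checked with the spleen transcription factors Tlx1 (197 to 565 counts per library) and Nkx2-5 (34 to 90 counts) and the B cell gene Cr2 (6980 to 25811 counts). Cd8a, a targeted gene, still gave 582 to 1414 counts per library. Since every group carries the allele and the counts cover the whole gene, they check neither the labels nor whether protein was made.

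With 2DG, 5 of the 10 genes fell against untreated spleens of the same age: Gzmb, Gzmk, Ifng, Eomes and Ccl5. None rose in this comparison. Their fitted levels were from 1.84-fold (Ccl5) to 7.15-fold (Gzmb) lower. The median log2 change over the 10 was -1.29, against 0.01 over all genes tested. Of all genes tested 7.42% passed, 5.26% as lower and 2.16% as higher, so the share of the list that fell is above that background. The 10 genes were chosen with earlier results of these data known, so this excess is not independent evidence. The same limit holds for the counts of the 10 given below. In 5 of the 10, not the same 5, every 2DG library lay below every untreated 10-week library (Ifng, Tbx21, Eomes, Gzmb and Ccl5), which holds for 7.91% of genes tested. Without replicate 8, 8 of the 10 fell (7.72% of 18773 genes tested), the 5 above together with Tbx21, Prf1 and Nkg7, and in these 8 the libraries then did not overlap (11.8% of genes tested). DESeq2 called the same 8 with all 12 libraries (7.12% of genes tested). Bulk RNA cannot tell fewer cells of a type from less RNA per cell.

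**Figure D1:**
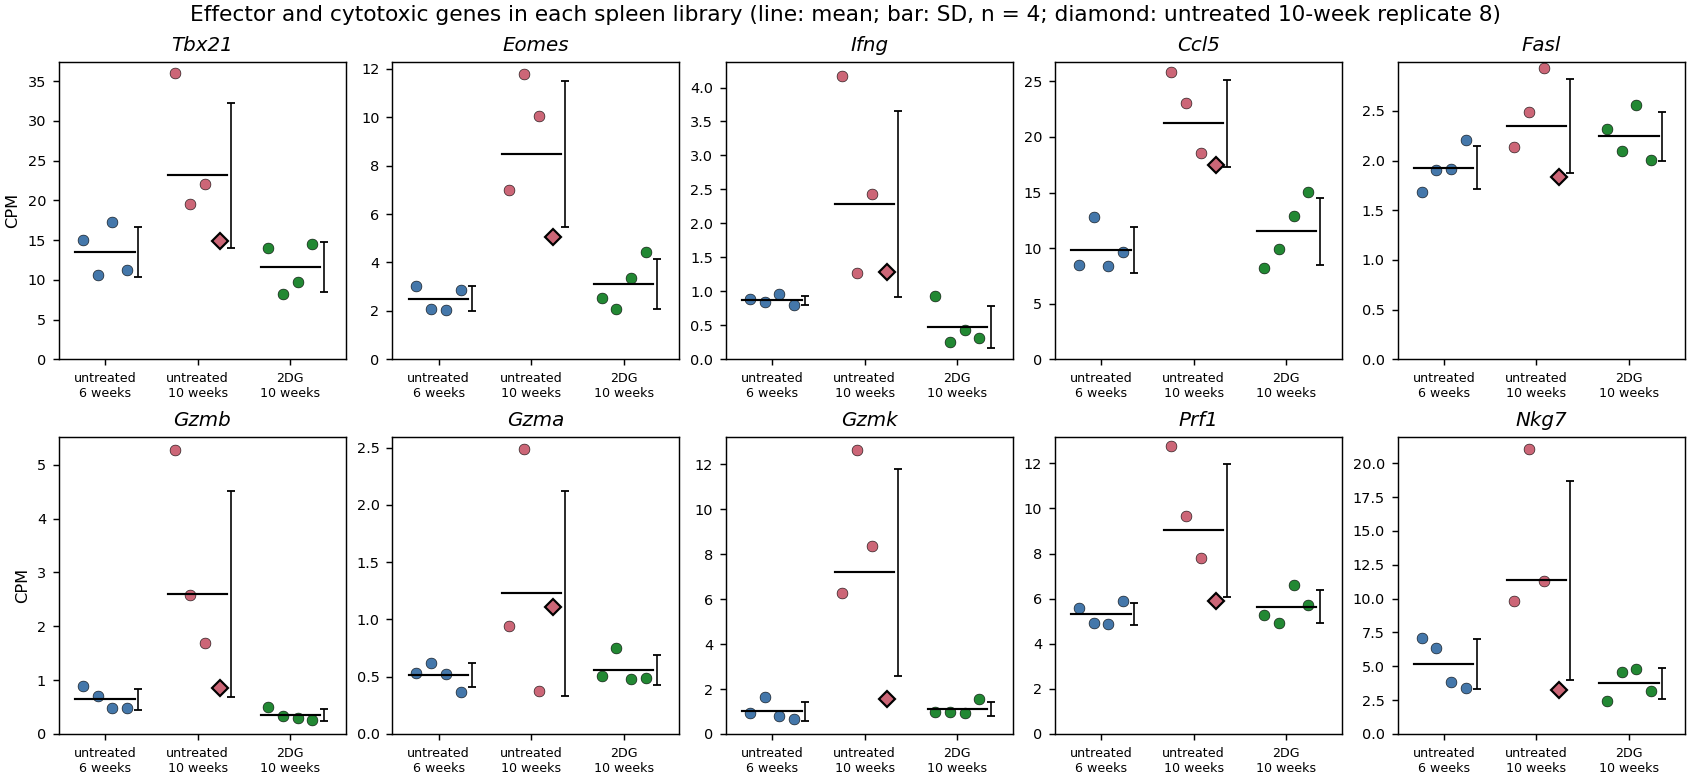
CPM of each of the 10 genes (vertical axes, linear, each with its own scale) in the 12 libraries, by group; the line is the mean, the bar the SD of 4 libraries, and the diamond untreated 10-week replicate 8. For Eomes all 4 untreated 10-week libraries sit above both other groups, while for Gzmk replicate 8 sits at 1.53 CPM beside the low groups.

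Among the transcription factors, Eomes (chromosome 9, 118478212 to 118486132) fell with 2DG. It stood at 3.01, 2.08, 2.06 and 2.88 CPM in the 6-week libraries, at 6.99, 11.8, 10.1 and 5.07 CPM in untreated replicates 5 to 8 at 10 weeks, and at 2.53, 2.09, 3.38 and 4.42 CPM with 2DG. The 10-week untreated libraries lay above both other groups without overlap. The fall with 2DG was -1.45 on the log2 scale (SE 0.28, edgeR adjusted p = 0.01). Its exons share 118 bases with an antisense gene, Gm33460, which held 0 to 6 counts per library in a kit that does not mark strand.

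Tbx21 (chromosome 11, 97098071 to 97115331), the gene of T-bet, had a smaller difference that did not pass. It stood at 15.0, 10.6, 17.3 and 11.2 CPM at 6 weeks, at 36.0, 19.5, 22.1 and 14.9 CPM in the untreated 10-week libraries, and at 14.0, 8.24, 9.70 and 14.5 CPM with 2DG. No 2DG library reached the lowest untreated one, though the gap from 14.5 to 14.9 CPM is narrow. The log2 change of -0.99 (SE 0.28) missed the threshold (edgeR adjusted p = 0.0521) and passed without replicate 8 (log2 change -1.16, edgeR adjusted p = 0.0189).

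Ifng (chromosome 10, 118441046 to 118445892), the cytokine downstream of both factors, was counted sparsely, with 6 to 80 counts per library. It stood at 0.886, 0.840, 0.957 and 0.798 CPM at 6 weeks, at 4.17, 1.27, 2.43 and 1.28 CPM in untreated 10-week replicates 5 to 8, and at 0.926, 0.251, 0.433 and 0.312 CPM with 2DG. All 4 untreated 10-week libraries were above every other library, and 3 of the 4 2DG libraries were below every 6-week library. The fall with 2DG was -2.22 (SE 0.45, edgeR adjusted p = 0.0118). It did not pass when only the compared groups were fitted (edgeR adjusted p = 0.0545). Its exons share 336 bases with Gm49751, an unclassified transcript on the same strand that held 2 to 24 counts per library, so some reads of Ifng may be counted there. Summed over both genes the levels were 1.24 ± 0.322 CPM at 6 weeks, 3.01 ± 1.79 CPM untreated at 10 weeks and 0.685 ± 0.406 CPM with 2DG. The lowest untreated 10-week library (1.53 CPM) was then still above the highest 2DG library (1.26 CPM). It was below the highest 6-week library (1.72 CPM), so on this sum the untreated groups of both ages overlapped.

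Ccl5 was the member with the highest level per length of transcript in every group. It stood at 8.46, 12.8, 8.37 and 9.63 CPM at 6 weeks, at 25.8, 23.1, 18.5 and 17.5 CPM in the untreated 10-week libraries, and at 8.21, 9.92, 12.9 and 15.0 CPM with 2DG. The untreated 10-week libraries, replicate 8 included, lay above both other groups. The fall with 2DG was -0.88 (SE 0.20, edgeR adjusted p = 0.0207), the smallest of the 5 that passed. That call was lost without untreated replicate 5, without 2DG replicate 10, without 2DG replicate 11, and with only the compared groups (edgeR adjusted p from 0.05 to 0.0773 in these 4 fits).

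Fasl, the death ligand, had the smallest difference of the 10 in this comparison. It ran from 1.68 to 2.21 CPM at 6 weeks, from 1.83 to 2.93 CPM in the untreated 10-week libraries and from 2.01 to 2.55 CPM with 2DG, so the 3 groups overlapped. The difference with 2DG was -0.07, with a 95% interval of -0.43 to 0.30 (edgeR adjusted p = 0.855). Changes of the size seen in Eomes or Gzmb lie outside that interval.

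The 3 granzymes differed in level and in how their libraries ranked. Gzmk (chromosome 13, 113171608 to 113225908), a granzyme with trypsin-like specificity, stood at 0.930, 1.64, 0.813 and 0.675 CPM at 6 weeks, at 6.26, 12.6, 8.37 and 1.53 CPM in untreated replicates 5 to 8, and at 0.968, 0.963, 0.953 and 1.56 CPM with 2DG. Replicates 5 to 7 were far above all other libraries, and replicate 8 was within the range of both other groups. The fall with 2DG was -2.69 (SE 0.52, edgeR adjusted p = 0.0119), and -3.04 without replicate 8 (SE 0.30, edgeR adjusted p = 0.000248).

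Gzmb (chromosome 14, 56258838 to 56262260), which cleaves after aspartate and activates caspases in the target cell, had the largest fitted fall, but on few counts: 8 to 20 per library at 6 weeks, 20 to 101 untreated at 10 weeks and 6 to 12 with 2DG. It stood at 0.886, 0.707, 0.478 and 0.491 CPM at 6 weeks, at 5.27, 2.58, 1.69 and 0.853 CPM in the untreated 10-week libraries, and at 0.505, 0.335, 0.303 and 0.268 CPM with 2DG. Every 2DG library was below every untreated 10-week library. The log2 change was -2.84 (SE 0.51, edgeR adjusted p = 0.00721).

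Gzma, also trypsin-like, had 6 to 53 counts per library and did not pass. It stood at 0.532, 0.619, 0.526 and 0.368 CPM at 6 weeks, at 0.939, 2.49, 0.371 and 1.11 CPM in the untreated 10-week libraries, and at 0.505, 0.753, 0.476 and 0.491 CPM with 2DG. The high untreated mean came mainly from replicate 6, and replicate 7, high for Gzmk, was the lowest of its group. The log2 change was -1.12 (SE 0.45, edgeR adjusted p = 0.143). Of the other granzymes, Gzmm had 7 to 33 counts per library, Gzmc and Gzmf had at most 3, and Gzmd, Gzme, Gzmg and Gzmn had 0 in every library.

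Prf1 and Nkg7 did not pass with all 12 libraries and fell once replicate 8 was left out. Prf1 stood at 5.58, 4.91, 4.88 and 5.89 CPM at 6 weeks, at 12.8, 9.67, 7.80 and 5.88 CPM in the untreated 10-week libraries, and at 5.26, 4.94, 6.63 and 5.71 CPM with 2DG (log2 change -0.68, SE 0.20, edgeR adjusted p = 0.0553). Without replicate 8 the change was -0.84 (SE 0.17, edgeR adjusted p = 0.00731). Nkg7 stood at 7.09, 6.37, 3.83 and 3.38 CPM at 6 weeks, at 9.81, 21.0, 11.3 and 3.24 CPM in the untreated 10-week libraries, and at 2.44, 4.56, 4.76 and 3.17 CPM with 2DG (log2 change -1.60, SE 0.47, edgeR adjusted p = 0.0656). Replicate 8 was in the 2DG range for both genes, and for Nkg7 it was below all 6-week libraries. Without it the change of Nkg7 was -1.92 (SE 0.34, edgeR adjusted p = 0.00503).

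**Figure D2:**
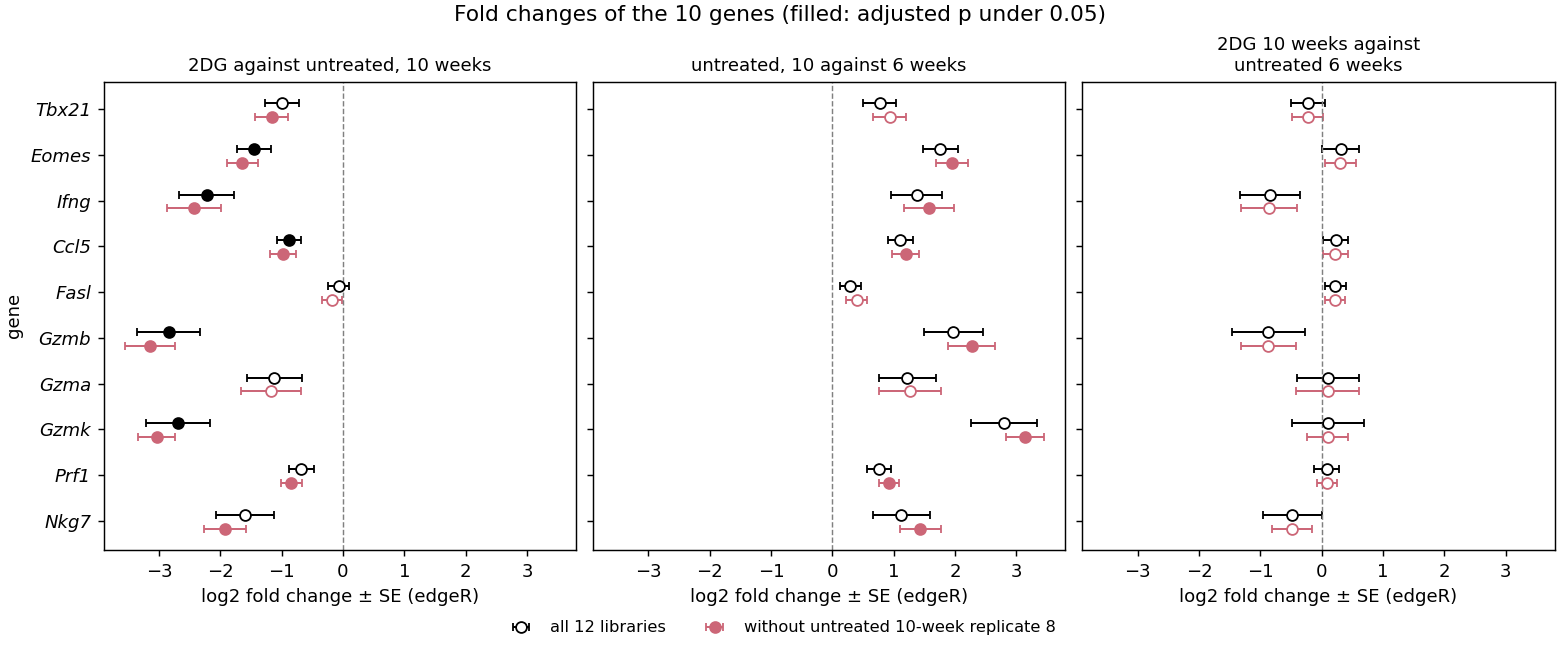
Log2 fold change ± SE of each gene (horizontal axes) in the 3 comparisons, with all 12 libraries in black and without untreated 10-week replicate 8 in red; filled points passed an adjusted p of 0.05. With 2DG 5 black and 8 red points are filled, with age 0 black and 7 red points, and in the right panel none.

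The age comparison set untreated spleens at the symptomatic age against those at the pre-symptomatic age. The log2 change was above 0 for all 10 genes; its median was 1.17 against 0.01 over all genes tested. None passed by edgeR's quasi-likelihood test, where 0.00539% of all genes tested did, which is 1 gene (Cd8a, lower). By unadjusted p under 0.05 the count was 9 of the 10, all but Fasl, against 17.1% of all genes tested, and DESeq2 called 6 of the 10 as higher (2.59% of genes). Closest to the threshold were Eomes (log2 change 1.76, SE 0.29, edgeR adjusted p = 0.0812), Ccl5 (1.11, edgeR adjusted p = 0.0815) and Gzmk (2.80, edgeR adjusted p = 0.0818). For Ifng, Eomes and Ccl5 all 4 libraries at 10 weeks lay above all 4 at 6 weeks, which holds for 3.64% of genes tested. With the counts of Gm49751 added, the Ifng libraries of both ages overlapped.

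The age result turned on replicate 8 as well as on the test used. Without that library, 7 of the 10 genes rose with age (4.57% of genes tested rose): Ifng, Eomes, Gzmb, Gzmk, Prf1, Nkg7 and Ccl5. Their log2 changes ran from 0.93 for Prf1 (edgeR adjusted p = 0.00948) to 3.14 for Gzmk (edgeR adjusted p = 0.000974). Tbx21 (0.93, edgeR adjusted p = 0.0576), Gzma (1.27, edgeR adjusted p = 0.145) and Fasl (0.40, edgeR adjusted p = 0.176) did not pass. The 3 other untreated 10-week libraries lay above every 6-week library for 8 of the 10 genes, all but Gzma and Fasl, against 9.22% of genes tested. Both comparisons with the untreated 10-week group share its libraries, so they are not independent of each other.

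Treated spleens at 10 weeks were then set against untreated spleens at 6 weeks, a comparison in which the groups differ in age and in treatment. None of the 10 genes passed by edgeR (0.129% of genes tested did), none had an unadjusted p under 0.05 (16.9% of genes did) and none passed by DESeq2 (5.64% of genes did). The groups overlapped for all 10, while 7.69% of genes tested lay wholly lower and 7.98% wholly higher. The median log2 change was 0.10. The 95% intervals still allow differences: from -1.91 to 0.21 for Ifng, from -2.14 to 0.41 for Gzmb and from -1.18 to 1.40 for Gzmk. They are narrower for some other genes, from -0.35 to 0.52 for Prf1, from -0.21 to 0.67 for Ccl5 and from -0.34 to 0.95 for Eomes. The width did not simply follow the counts. It ran from -1.54 to 0.58 for Nkg7 and from -0.15 to 0.60 for the more sparsely counted Fasl.

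The 4 untreated 10-week libraries were unlike each other in which genes were high. Replicate 5 was the highest of all 12 libraries for Ifng, Tbx21, Gzmb, Prf1 and Ccl5, and replicate 6 for Eomes, Gzma, Gzmk and Nkg7. Replicate 8 was the lowest of its group for 8 of the 10 genes and lay inside the 6-week range for 5. The balance of the T-box factors, taken as the ratio of Eomes to Tbx21 in CPM per kilobase of exon, was 0.116 in replicate 5 and 0.361 in replicate 6, with 0.273 and 0.204 in replicates 7 and 8. At 6 weeks it ran from 0.0713 to 0.154 and with 2DG from 0.108 to 0.209. The ratio of Gzmk to Prf1 on the same scale ran from 0.485 to 2.43 in the untreated 10-week libraries, from 0.213 to 0.620 at 6 weeks and from 0.267 to 0.509 with 2DG, so that the groups overlapped.

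**Figure D3:**
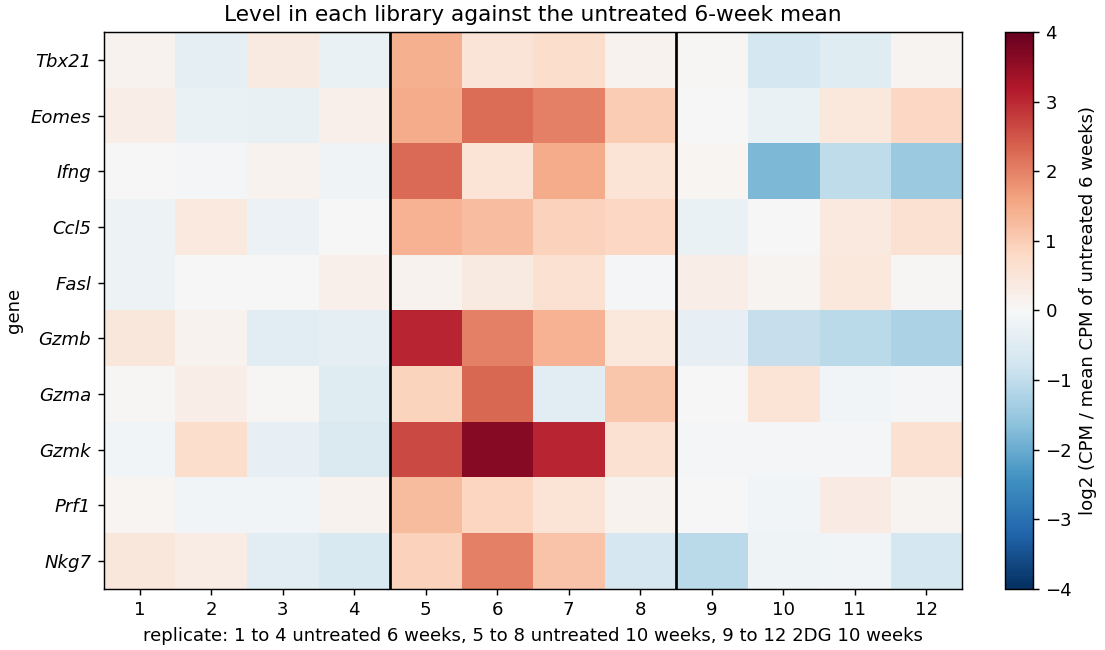
Log2 of the CPM of each gene (rows) in each library (columns) over the mean of the 4 untreated 6-week libraries; red is higher and blue lower, and black lines part the groups. Replicate 5 is darkest for Gzmb (5.27 CPM) and replicate 6 for Gzmk (12.6 CPM), while replicate 8 is pale in most rows.

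Per length of transcript, the order of levels in the untreated 10-week libraries began with Ccl5 at 22.1 ± 4.07 CPM per kilobase, Nkg7 at 12.4 ± 8.04 and Tbx21 at 9.30 ± 3.65. Gzmk followed at 5.18 ± 3.32, Prf1 at 3.50 ± 1.14 and Eomes at 2.04 ± 0.726 CPM per kilobase. Gzmb (1.81 ± 1.33), Ifng (1.77 ± 1.06), Gzma (1.22 ± 0.893) and Fasl (1.21 ± 0.243 CPM per kilobase) were lowest. Neighbours in that order differed by more than the SD of either at 3 steps, from Ccl5 to Nkg7, from Tbx21 to Gzmk and from Prf1 to Eomes; at the other steps the difference lay within the SD of at least 1 of the pair.

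T cell genes as a whole overlapped between the groups. The summed level of 16 pan T cell genes, such as the CD3 chains, was 975 ± 124 CPM at 6 weeks, 981 ± 116 CPM in the untreated 10-week libraries and 933 ± 139 CPM with 2DG, and 0 of the 16 passed in any of the 3 comparisons. The smallest p with 2DG was that of Zap70, a T cell receptor kinase (-0.44, edgeR adjusted p = 0.0907). Cd4 stood at 166 ± 20.7, 155 ± 12.4 and 162 ± 17.1 CPM in the same order. Per 1000 counts of the pan T cell genes, Eomes stood at 2.57 ± 0.383 at 6 weeks, 8.63 ± 2.88 untreated at 10 weeks and 3.26 ± 0.598 with 2DG. On this scale the untreated 10-week and 2DG libraries did not overlap for Ifng, Eomes, Gzmb, Gzmk and Ccl5, the 5 genes that fell, and overlapped for the other 5. No share over all genes was computed on this scale, so that count has no background to be read against. The pan T cell genes do not tell which T cells, or whether T cells at all, held the transcripts.

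**Figure D4:**
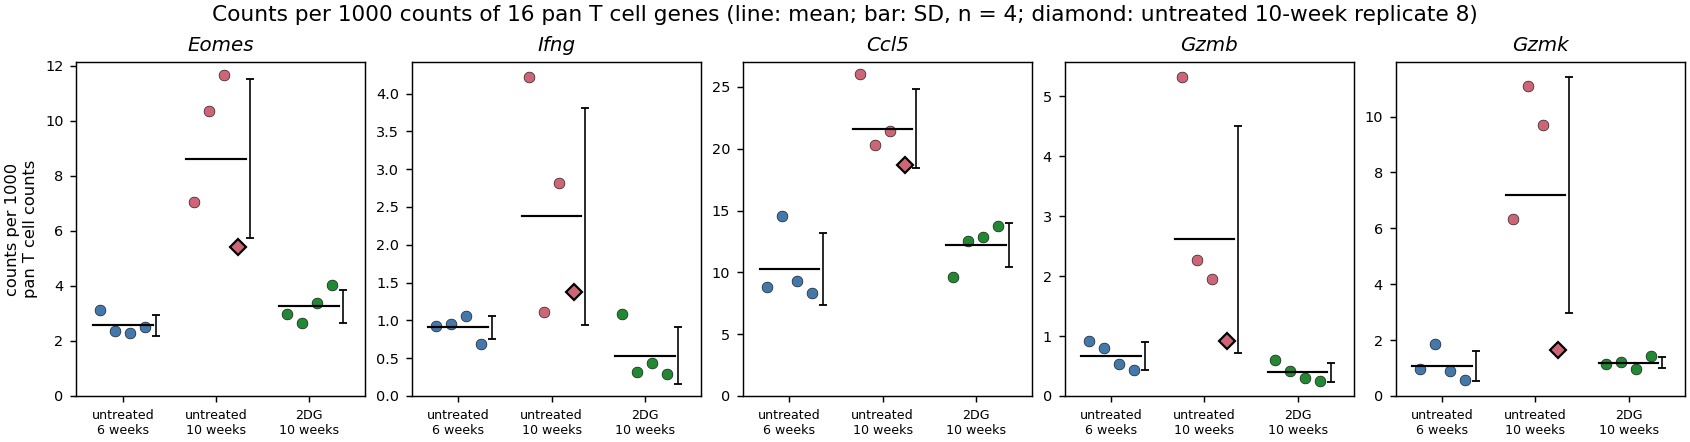
Counts of the 5 genes that fell with 2DG per 1000 counts of 16 pan T cell genes (vertical axes, linear) in each library; line, bar and diamond mark the mean, the SD of 4 libraries and untreated 10-week replicate 8. For Eomes the untreated 10-week libraries run from 5.43 to 11.7, above all 2DG libraries (2.65 to 4.04), and for Gzmk replicate 8 lies just above the 2DG group (1.64 against at most 1.43).

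Genes that usually mark cytotoxic cells were read in the same comparisons. Cd8a is a targeted gene in every group, so its RNA cannot be read here as a measure of CD8 T cells. Cd8a, which encodes the CD8 alpha chain, rose with 2DG to 50.3 ± 5.99 CPM from 32.6 ± 4.45 CPM (log2 change 0.62, SE 0.11, edgeR adjusted p = 0.00667), and was lower at 10 weeks than at 6 weeks (61.7 ± 6.61 CPM, log2 change -0.92, SE 0.11, edgeR adjusted p = 0.036). Cd8b1, the beta chain, had 9 to 97 counts per library and did not pass (0.45, SE 0.55, edgeR adjusted p = 0.671). Without replicate 8 it rose with 2DG (1.55, edgeR adjusted p = 0.0153) and fell with age (-1.49, edgeR adjusted p = 0.0274). Of 9 NK cell genes, only 2 passed with 2DG. Klrd1, the CD94 chain, rose (0.77, SE 0.20, edgeR adjusted p = 0.0394). Klrk1, the receptor NKG2D, fell (-0.42, SE 0.12, edgeR adjusted p = 0.0466). None of the 9 passed with age, and without replicate 8 Klrd1 fell with age (-0.97, edgeR adjusted p = 0.0214). The median log2 change of the NK cell list with 2DG was -0.01, against 0.01 over all genes tested, of which 2.16% rose and 5.26% fell. The summed level of the list was 185 ± 22.6, 193 ± 40.8 and 184 ± 8.53 CPM in the 6-week, untreated 10-week and 2DG groups, but most of it came from Cd244a (51.1, 51.5 and 51.1 CPM) and from Tyrobp (106, 118 and 108 CPM), an adaptor that myeloid cells also express, so the sum says little of NK cells. The defining NK receptor genes Ncr1 (9 to 30 counts per library) and Klrb1c (9 to 55 counts) were sparsely counted in every group. None of 5 gamma delta T cell genes passed with 2DG (median log2 change 0.57), and the smallest p was that of Sox13 (0.57, edgeR adjusted p = 0.155). Without replicate 8, 2 of the 5 rose with 2DG (median 0.98), the T cell receptor gamma constant genes Tcrg-C2 (1.03, edgeR adjusted p = 0.0168) and Tcrg-C4 (0.98, edgeR adjusted p = 0.0436), and the same 2 fell with age. None of 8 naive T cell genes passed either (median 0.27), the nearest being S1pr1, the receptor for lymph node exit (0.38, edgeR adjusted p = 0.053). Without replicate 8, 3 of the 8 rose with 2DG and fell with age: S1pr1 (with 2DG 0.47, edgeR adjusted p = 0.0103), Satb1 (0.45, edgeR adjusted p = 0.041) and Ccr7 (0.39, edgeR adjusted p = 0.0496). Over all genes tested without that library, 4.05% rose and 7.72% fell with 2DG.

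Lists for other cell types were read beside all genes tested, of which 5.26% fell and 2.16% rose with 2DG. The summed level of 7 plasma cell genes was 3090 ± 779 CPM at 6 weeks. It was 5217 ± 1570 CPM untreated at 10 weeks and 2054 ± 462 CPM with 2DG. Untreated replicate 6 (3666 CPM) lay within the 6-week range (2136 to 4007 CPM). All 7 plasma cell genes fell with 2DG, among them Xbp1 (log2 change -1.46, SE 0.17, edgeR adjusted p = 0.00176), Prdm1 (-1.47, edgeR adjusted p = 0.00176) and Irf4 (-0.96, edgeR adjusted p = 0.00176), each a transcription factor of antibody-secreting cells. Irf4 and Prdm1 also act in effector T cells. None of the 7 passed with age. Without replicate 8, 6 of the 7 rose with age, against 4.57% of genes tested. The summed level of 6 B cell genes was 3317, 2247 and 2907 CPM in untreated replicates 5, 6 and 7 and 4635 CPM in replicate 8, against 3803 to 4475 CPM at 6 weeks and 4041 to 4366 CPM with 2DG. The nearest to the threshold of these with 2DG was Cr2 (0.99, edgeR adjusted p = 0.0806, and 8.13e-05 without replicate 8). None of the 6 B cell genes passed with age. Without replicate 8, 4 of the 6 fell with age, against 3.76% of genes tested. Mast cell and basophil genes, some of which encode granule proteins too, summed to 58.8 CPM in replicate 6 and 36.8 CPM in replicate 7, against 14.1 to 26.7 CPM in the other 10 libraries, and none of 5 tested passed with 2DG (Mcpt8, a basophil protease, -1.01, edgeR adjusted p = 0.242). Without replicate 8, Mcpt8 fell (-1.34, edgeR adjusted p = 0.0466). Of 6 plasmacytoid dendritic cell genes, only Tcf4 passed, as lower (-0.37, edgeR adjusted p = 0.0122), and of 8 spleen genes Tlx1 (0.65, edgeR adjusted p = 0.024) and Nkx2-5 (0.76, edgeR adjusted p = 0.0325) rose. Without replicate 8, the plasmacytoid dendritic cell list also held a rise, that of Ccr9 (0.85, edgeR adjusted p = 0.0263), and Nkx2-5 no longer passed (0.70, edgeR adjusted p = 0.0522). What these shifts contribute to the differences in the 10 genes was not tested.

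Genes of the pathways around the 10 were counted by list. These lists too were chosen with earlier results of these data known, so their shares are not independent evidence. Of 15 genes for the interferon gamma receptor and its targets, 9 fell with 2DG and none rose (median log2 change -0.87, against 0.01 over all genes tested, with 5.26% of genes falling). Among these, Irf1, a transcription factor induced by interferon, fell to 135 ± 13.8 CPM from 247 ± 45.7 CPM (log2 change -0.87, SE 0.12, edgeR adjusted p = 0.00222). Irgm1, an interferon-induced GTPase, changed by -1.01 (SE 0.16, edgeR adjusted p = 0.00403), and Cd274, the checkpoint ligand PD-L1, by -0.56 (SE 0.09, edgeR adjusted p = 0.00456). Many of these genes also respond to type I interferon.

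Of 18 type 1 programme genes tested, 6 fell and none rose (median -0.24); without replicate 8, 6 fell and 1 rose, Il27ra (0.32, edgeR adjusted p = 0.0455). Il12a, a subunit of interleukin 12, fell by 0.72 on the log2 scale (edgeR adjusted p = 0.00224), and Bhlhe40, a transcription factor that sustains cytokine production in T cells, by 0.51 (edgeR adjusted p = 0.0157). Il27, Il12rb1 and Il2rb were also among those that fell.

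Of 12 granule genes tested, 4 fell and none rose (median -0.23). Cst7, the cathepsin inhibitor cystatin F, fell from 20.6 ± 5.32 to 7.14 ± 1.07 CPM (-1.53, SE 0.20, edgeR adjusted p = 0.00176), and its untreated and 2DG libraries did not overlap. Smaller falls were those of Serpinb9, an inhibitor of granzyme B (-0.42, edgeR adjusted p = 0.00819), and Srgn, the granule proteoglycan serglycin (-0.37, edgeR adjusted p = 0.0102), and the last was Ctsc, the protease that activates granzymes. Myeloid cells also express Cst7, Srgn and Ctsc.

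Of 11 effector chemokine and homing genes, 5 fell and none rose (median -0.36). Xcl1, a chemokine for cross-presenting dendritic cells, had 6 to 32 counts per library and changed by -1.68 (SE 0.20, edgeR adjusted p = 0.00176), and Ccl3, an inflammatory chemokine, by -1.61 (SE 0.30, edgeR adjusted p = 0.008). Ccl4 and Cxcr3 were also among those that fell. Of 11 death ligand and receptor genes, 2 fell: Tnfsf10, the death ligand TRAIL (-1.01, SE 0.16, edgeR adjusted p = 0.00384), and Fas, the receptor for Fas ligand (-0.59, SE 0.14, edgeR adjusted p = 0.0235). Without replicate 8, 4 of these 11 fell, among them Tnfsf10, Fas and Cflar, and 2 rose (Bid and Lta). In the age comparison no gene of these 5 lists passed by edgeR. Without replicate 8, 7 of 15 interferon gamma genes, 6 of 18 type 1 genes, 3 of 12 granule genes, 5 of 11 chemokine and homing genes and 2 of 11 death ligand and receptor genes (Tnfsf10 among them) rose with age, while Il27ra (-0.34, edgeR adjusted p = 0.0435) and Bid (-0.25, edgeR adjusted p = 0.0348) fell. Over all genes tested in that fit, 4.57% rose and 3.76% fell.

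**Figure D5:**
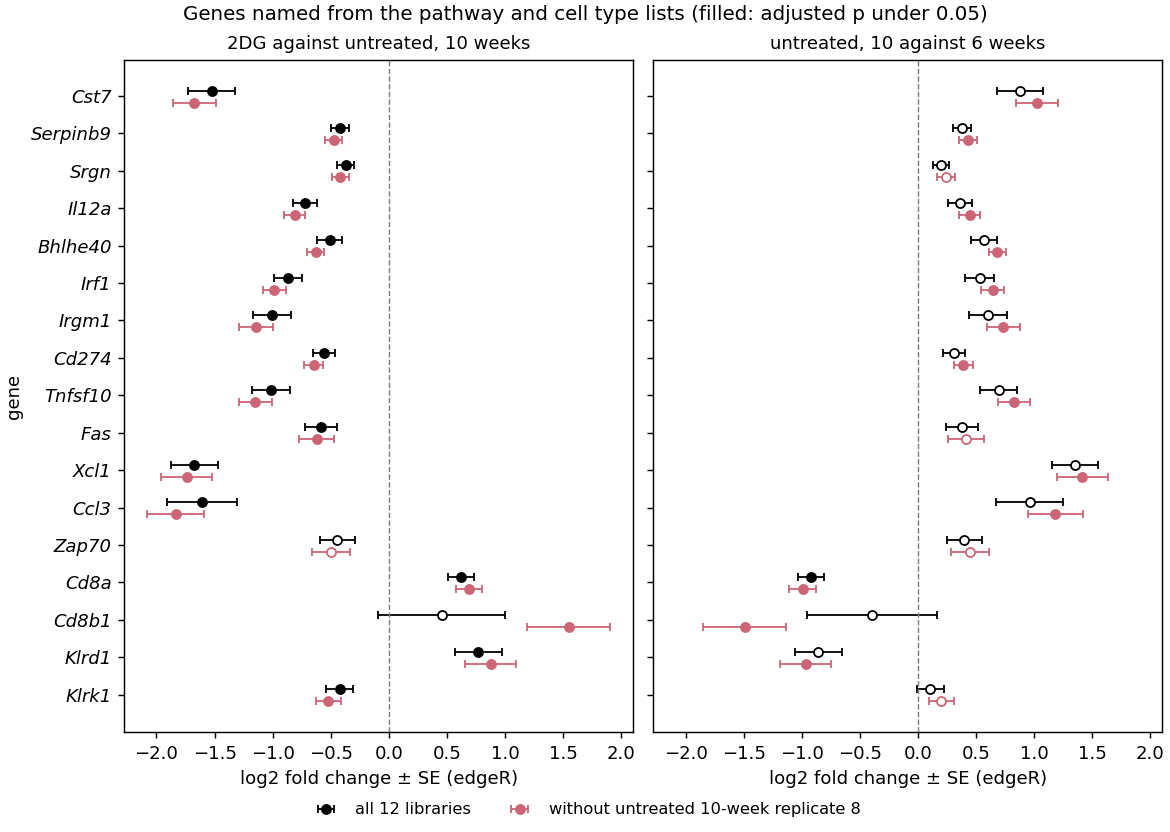
Log2 fold change ± SE (horizontal axes) of genes named from the pathway and cell type lists, with 2DG (left) and with age in untreated spleens (right), for all 12 libraries in black and without replicate 8 in red; filled points passed an adjusted p of 0.05. With 2DG the pathway genes from Cst7 to Ccl3 lie below 0, while Cd8a (0.62) and Klrd1 (0.77) lie above it.

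Among the 5 genes whose pattern was most like the mean of the 10 (of standardized log2 CPM, by Pearson's r over all 12 libraries, among 12310 genes) were Cd63-ps (r = 0.979), Cxcl16 (r = 0.969), AW112010 (r = 0.969) and Sdf4 (r = 0.966). These values describe libraries that share the group differences. AW112010 had the widest range of these, at 63.3 ± 6.54 CPM at 6 weeks, 124 ± 37.0 CPM untreated at 10 weeks and 60.7 ± 9.37 CPM with 2DG. Among the 10 themselves, the correlation of each gene with the mean of the other 9 was highest for Gzmk (r = 0.945) and Prf1 (r = 0.905) and lowest for Gzma (r = 0.489) and Fasl (r = 0.365).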

How the data were processed

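RNA-seq of poly(A)-selected, unstranded libraries gave 12 samples in 3 groups of 4. The counts, deposited by the authors as whole numbers, stand in 1 table; Bowtie2 2.2.0, RSEM 1.2.12 and the GRCm38 build are named, without roles, per the submitters' processing notes. Symbols and coordinates come from GENCODE M21 (GRCm38), and 95 identifiers had no symbol (at most 0.0158% of a library's counts). Counts were fitted with edgeR 4.0.16 (R 4.3.3) over all 12 libraries: filterByExpr, TMM scaling, robust quasi-likelihood test, Benjamini-Hochberg adjustment. The SE is the absolute log2 change over the root of F. On simulated counts of the 2DG comparison (18360 genes) the calls included 19 of 67 genes set to a 1.5-fold difference, 53 of 67 at 2-fold, 57 of 66 at 4-fold and 9 left as they were. The simulation gave each gene the same spread in every group. The real untreated 10-week group was more variable than the others, so these shares may not carry over. DESeq2 1.42.0, limma 3.58.1 (voom), other scalings, filters, group sets and leaving out each library were alternatives. The 10 genes and the lists were chosen with earlier results of these data known. From each list the text names up to 3 genes that passed with 2DG, by smallest adjusted p, or else the gene of smallest p, both CD8 chains, and the 5 genes most like the 10; further names only list the genes behind a count or define a cell type. How reads were assigned to genes, and on which annotation, is not stated per the labels. Some genes that this rule picks are not reported here.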

Additional observations from a re-analysis of the deposited data

Results flagged for a closer look

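In 2 of 30 groups screened (10 genes in 3 groups of 4), 1 library lay far from the other 3, and chance alone gives about 1 in 20. Gzma stood at 0.753 CPM in 2DG replicate 10, against 0.476 to 0.505 CPM in the other 2DG libraries, on 18 counts against 11 to 12. Gzmk stood at 1.56 CPM in 2DG replicate 12, against 0.953 to 0.968 CPM in the others.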

How the results depend on the processing

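No paired analysis was possible because replicate numbers run on from group to group and no 2 groups share one. Counts of the 10 genes called with 2DG (5 with all libraries) were 8 by DESeq2, 3 with only the compared groups, 8 without untreated 10-week replicates 6 and 8 together (chosen after seeing the data), and 4 to 8 when each library was left out. With age (0) they were 6 by DESeq2, 1 by limma, 2 without a low count filter, 7 without replicates 6 and 8, and 0 to 7 with each library left out. Over all genes the 2DG comparison (1376 called) gave 2304 by DESeq2, 581 with only the compared groups, 3193 without replicates 6 and 8, and 514 to 2209 with each library left out. The age comparison (1) gave 682 by DESeq2, 18 by limma, 102 without a filter, 0 with only the compared groups, 2303 without replicates 6 and 8, and 0 to 1563 with each library left out. For 2DG against 6 weeks (24) the counts were 902 by DESeq2, 1665 by limma, 98 without a filter, 1367 with only the compared groups, 758 without replicates 6 and 8, and 1 to 354 with each library left out. Signs of small differences that had not passed turned in 6 fits: Fasl with 2DG without untreated 10-week replicate 7 (0.054), and against 6 weeks Gzma without 6-week replicate 4 (-0.0052) or 2DG replicate 10 (-0.077), Gzmk without 6-week replicate 4 (-0.027) or 2DG replicate 12 (-0.098), and Prf1 without 2DG replicate 11 (-0.0013). With each library left out, these log2 changes ran from -0.18 to 0.054 for Fasl, from -0.077 to 0.21 for Gzma, from -0.098 to 0.44 for Gzmk and from -0.0013 to 0.14 for Prf1. Gzma fell with 2DG without untreated replicate 7. At a minimum of 1 CPM in 4 libraries Gzmb was not tested and Tbx21 passed (edgeR adjusted p = 0.0476). The cause of these changes was not tested. Gzmb, Gzma and Ifng rest on as few as 6 counts in a library, which limits their precision.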
